A study of Mus musculus with 4 samples.

Results

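The genes described here are 8 extracellular protease and inhibitor genes, the matrix metalloproteinases Mmp8, Mmp9, Mmp12, Mmp13, Mmp14 and Mmp19 and the tissue inhibitors of metalloproteinases Timp1 and Timp2. They were taken by symbol from the 22620 genes of the deposited tables, and all 8 were found. Their transcripts were counted in single cells from tumours of MC38, a line of mouse colon carcinoma cells. The tumours came from wild-type (WT) and knockout (KO) mice, with 2 libraries of each genotype. Tumours were digested with collagenases and dispase, cells were enriched on CD45 magnetic beads, and libraries were made with a 10x Genomics 3′ kit. The labels give WT or KO and a replicate number only. The sources used here do not give the allele, the strain, the age and sex of the mice, or how many mice each library holds. The p-values therefore measure only how these libraries spread, and that spread may be technical. Each result compares KO with WT in cells of the same gated class.

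Matrix metalloproteinases are zinc endopeptidases that cut extracellular matrix proteins and many secreted or surface proteins. Most are secreted as proenzymes and become active once the propeptide is removed, and Mmp14 is held in the plasma membrane. Tissue inhibitors bind active enzymes and block them, and Timp2 together with Mmp14 also takes part in activating pro-Mmp2. In tumours, macrophages are a known source of Mmp12, an elastase named for them, and neutrophils store Mmp8 and Mmp9 in granules. Transcript counts do not show proenzyme activation or inhibition.

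Mmp13, Mmp12 and Mmp8 lie in that order in a row of metalloproteinase genes on chromosome 9 of mm10, all on the forward strand. GENCODE M21 places Mmp13 at chr9:7272514-7283331, Mmp12 at chr9:7344381-7369499 and Mmp8 at chr9:7558456-7568485. The other members are apart, with Mmp9 at chr2:164940780-164955850, Mmp14 at chr14:54431612-54445364, Mmp19 at chr10:128790910-128800824, Timp1 at chrX:20870166-20874735 and Timp2 on the reverse strand at chr11:118301069-118355740. All 8 are protein-coding genes. Mmp12 overlaps the reverse-strand gene Mmp1b, Mmp19 overlaps Tmem198b and an antisense gene, Timp1 overlaps Syn1, and Timp2 overlaps Cep295nl, so reads in the shared stretches could count for either gene where strand was not used. The sources used here do not say whether strand was used in counting.

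The promoters of Mmp12 and Mmp13 are shown because these neighbours had the most similar levels of any pair that includes Mmp12. Of the 8 members, 6 were matched in the RefSeq promoter table of GRCm38.p6, which did not include Mmp9 and Mmp19. The windows are the 250 bases before a RefSeq start on the forward strand, for Mmp12 chr9:7344147-7344396, before the first of its listed starts (which lies just inside the GENCODE gene), and for Mmp13 chr9:7272264-7272513. Capitals mark matches, on either strand, to TGANTCA (the AP-1 element), TATAAA (the TATA box) and AGGAAG (the PEA3 element of ETS factors).
Mmp12: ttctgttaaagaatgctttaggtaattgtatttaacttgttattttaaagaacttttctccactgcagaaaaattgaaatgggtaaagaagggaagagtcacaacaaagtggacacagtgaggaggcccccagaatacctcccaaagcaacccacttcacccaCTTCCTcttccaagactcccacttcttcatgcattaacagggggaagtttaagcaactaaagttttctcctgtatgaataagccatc
Mmp13: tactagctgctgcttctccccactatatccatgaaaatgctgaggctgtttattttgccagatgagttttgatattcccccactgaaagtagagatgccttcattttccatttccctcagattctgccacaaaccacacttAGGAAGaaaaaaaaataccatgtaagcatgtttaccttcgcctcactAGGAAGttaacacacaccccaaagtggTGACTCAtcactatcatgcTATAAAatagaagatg
The Mmp13 window holds an AP-1 match that begins 35 bases before the start, a TATAAA match that begins 16 bases before it and 2 AGGAAG matches. The Mmp12 window holds 1 AGGAAG match and none to the other motifs, while the window before a later listed Mmp12 start, inside the gene, holds an AP-1 match that begins 44 bases before that start. Among 32851 windows of this length in the table, 6.75% hold TGANTCA, 12.4% TATAAA and 29.5% AGGAAG. The STAT element TTCNNNGAA was also searched, was found in 7.02% of all windows and in none of the members' windows, and no marked matches overlap. A match is a description of letters and not a measured binding site.

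The 4 libraries held 94213071 and 112472244 UMIs (molecules counted once) in WT and 130466357 and 104900918 in KO, and 8024 to 14685 cells each were kept, with median depths of 5402 UMIs per cell in KO 1 to 11891.5 in WT 2. Cells were assigned to classes by marker UMIs per 10000 UMIs of the cell. Macrophages were gated on C1qa, C1qb and C1qc, the complement genes of mature macrophages (at least 20, with Ly6c2 and Plac8 under 10), and monocytes on Ly6c2 and Plac8 (at least 10, with C1q under 20). Chil3 Ear2 cells had at least 5 of those genes with C1q under 20 and Ly6c2 and Plac8 under 10, and C1q-low cells were the remaining cells with little C1q but with a sum of macrophage markers, among them Adgre1, Mrc1, Csf1r and Trem2, of 4 or more. The C1q-low class is a range cut from a score. Median C1q per 10000 UMIs also differed by genotype in other classes. It was 1.93 and 2.98 in WT and 8.29 and 5.58 in KO in T-gated cells. In neutrophils it was 5.84 and 5.30 in WT and 16.9 and 9.97 in KO. B-gated cells overlapped, at 3.99 and 5.89 in WT and 10.7 and 5.33 in KO. The same C1q cut was used in both genotypes, and its effect on which cells were selected was not tested. C1q-low cells, Chil3 Ear2 cells and monocytes counted together had 172 to 297 cells per library within 25% of the C1q cut. In WT 1, WT 2, KO 1 and KO 2 the C1q macrophages numbered 4099, 4550, 6844 and 3832, the C1q-low cells 1603, 1618, 1926 and 1414, and the monocytes 251, 202, 875 and 583. Libraries shared 22 to 51 cell barcodes per pair. Ptprc, the gene of CD45, was at 381 to 441 CPM (the UMIs of a gene scaled to 1000000 UMIs of the class) in C1q macrophages. All 6 T cell markers were higher in both KO libraries in C1q macrophages, their summed level being 1.6 and 3.86 CPM in WT and 20.2 and 15.2 in KO, and in C1q-low cells, with 1.8 and 3.26 against 22.5 and 14.5 CPM. The part of free RNA in the member results was not tested beyond the values in T-gated cells given beside them.

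Mmp12 was the most abundant member, with 564135 UMIs over all kept cells, followed by Timp2 with 144264 and Mmp14 with 55664. Mmp13 had 45179, Timp1 22711, Mmp19 16010, Mmp8 12022 and Mmp9 7660. Because reads come from the 3′ end of each transcript, these UMIs are numbers of molecules captured and are not divided by gene length. C1q macrophages and C1q-low cells together held most Mmp12 UMIs in every library, but in different proportions. Of the Mmp12 UMIs, C1q macrophages held 32.6% and 42.2% in the WT libraries against 63.5% and 66.4% in the KO libraries, and C1q-low cells 57.2% and 51.9% against 30.0% and 28.0%. The shares of Mmp13 UMIs in C1q macrophages were 40.4% and 47.3% in WT and 73.0% and 73.6% in KO. These shares combine the number of cells of a class and the RNA per cell.

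Across classes the members had distinct orders of level. Mean Mmp12 in WT was 4112 ± 758 CPM in C1q-low cells (SD, n = 2 libraries here and below), 2045 ± 13.8 in Chil3 Ear2 cells, 1023 ± 85.0 in C1q macrophages and 162 ± 106 in monocytes. In KO the order was 2474 ± 141, 1749 ± 724, 1542 ± 324 and 246 ± 115 CPM, and there the spread of the middle pair overlapped. T-gated cells, which are not a known source of Mmp12, gave a comparison level, 56.7 and 73.1 CPM in WT and 124 and 138 in KO. Among the myeloid classes Mmp9 was highest in neutrophils and Timp2 in C1q macrophages, while Mmp14 was close to even, at 98.3 to 181 CPM, over C1q macrophages, C1q-low cells, Chil3 Ear2 cells and monocytes. Timp1 and Timp2 were higher still in the few cells of the stromal or tumour gate, at 251 to 796 and 794 to 892 CPM.

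**Figure D1:**
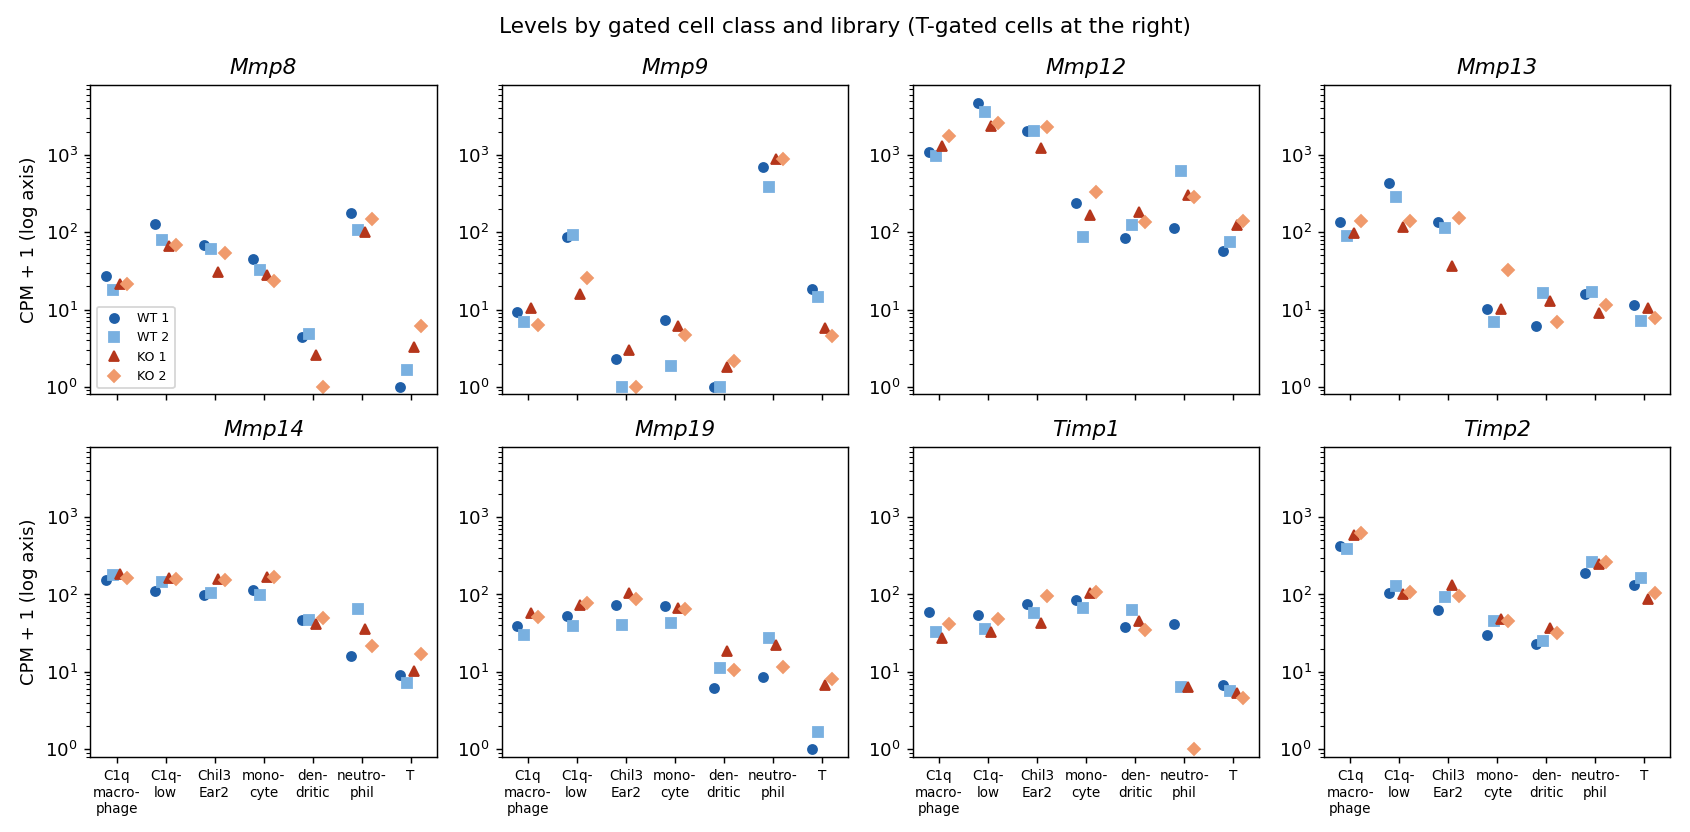
CPM of each member plus 1 (vertical log axis) in 7 gated cell classes, 1 point per library, with WT libraries in blue and KO libraries in red and orange. Mmp12 in C1q-low cells lies at 3576 and 4648 CPM in WT and 2374 and 2573 in KO, and Mmp9 is highest in neutrophils.

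Mmp12, macrophage elastase, changed in opposite directions in C1q macrophages and in C1q-low cells, each summed as a class. In C1q macrophages it was at 1083 and 963 CPM in WT 1 and WT 2 and at 1313 and 1771 CPM in KO 1 and KO 2. Both KO libraries lay above both WT libraries, and Mmp12 rose by 0.74 ± 0.16 on the log2 scale (SE; adjusted p = 0.0289, edgeR quasi-likelihood test with Benjamini-Hochberg adjustment, used for every adjusted p below). In C1q-low cells the order was turned, with 4648 and 3576 CPM in WT and 2374 and 2573 in KO, and Mmp12 fell by 0.70 ± 0.12 (adjusted p = 0.0073). The test of the difference itself, C1q-low minus C1q macrophages over the 8 sums, gave -1.41 ± 0.15 (adjusted p = 0.00963), against a background of 11.8% of 12026 genes called in that test. The rise in C1q macrophages missed the threshold without WT 1 (0.79, adjusted p = 0.12), WT 2 (0.70, 0.115) or KO 2 (0.50, 0.0784), and was not seen with macrophages taken from clusters (-0.19, 0.66) or with the C1q-low cells counted in (0.02, 0.951), while the fall missed it without KO 1 (-0.64, 0.0629). The difference between the classes passed in all 9 alternatives run. The C1q-low class was defined after the libraries had been seen. T-gated cells and neutrophils also had more C1q in KO, as given above. The part of this in the opposite changes of the classes was not tested.

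Of the 8 members, 3 passed in C1q macrophages, all higher in KO (Mmp12, Mmp19 and Timp2), where 10.4% of 12238 genes passed (776 or 6.34% higher and 501 or 4.09% lower). With scaling by total counts in place of TMM the split was 552 higher and 1224 lower, the median of all genes moving by -0.15 on the log2 scale, and the same 3 members passed. In C1q-low cells 4 of 8 passed, 1 higher (Mmp19) and 3 lower (Mmp9, Mmp12 and Mmp13), where 12.1% of 11125 genes passed, 699 (6.28%) higher and 651 (5.85%) lower (606 and 732 with scaling by total counts).

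**Figure D2:**
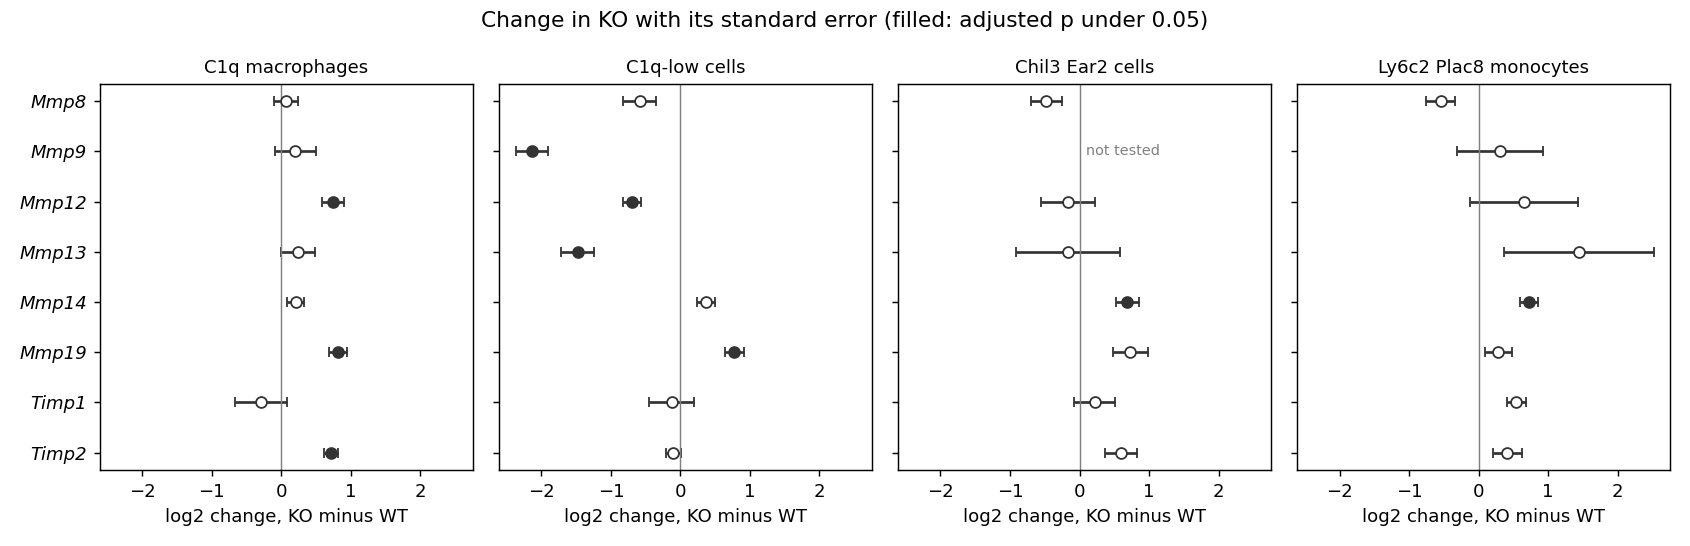
Change of each member in KO against WT on the log2 scale (horizontal axis) with its standard error, in 4 gated classes, filled points having an adjusted p under 0.05 and n being 2 libraries per genotype. Mmp12 lies at 0.74 in C1q macrophages and at -0.70 in C1q-low cells, and Mmp19 lies above 0 in both.

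The distribution of Mmp12 over cells differed between the genotypes in both classes. In C1q macrophages the median cell had 0.965 and 0.992 Mmp12 UMIs per 10000 in WT and 1.81 and 3.81 in KO, and the 90th percentiles were 25.5 and 25.01 in WT and 33.9 and 44.5 in KO, so both were higher in both KO libraries. The tenth of cells with most Mmp12 UMIs held 78.5% and 72.95% of them in WT and 68.1% and 62.6% in KO, so the transcripts were spread over more cells in KO. After thinning each cell to 2000 UMIs, Mmp12 was seen in 35.6% and 38.01% of WT and 46.5% and 55.6% of KO C1q macrophages. Unthinned, the shares were 59.9%, 64.0%, 64.1% and 76.1%, at median depths of 11523, 13209.5, 8680 and 14089 UMIs. Thinning left out 409, 233, 1107 and 491 shallower cells. T-gated cells, with median depths of 2973, 3127, 2860 and 3219 UMIs, gave 9.29%, 13.3%, 21.5% and 17.5% after the same thinning and 20.3%, 24.1%, 33.5% and 31.2% without it. In C1q-low cells the medians overlapped, at 8.61 and 11.3 per 10000 in WT and 8.24 and 9.32 in KO, whereas the 90th percentiles were 145 and 97.3 in WT and 52.5 and 59.0 in KO. Those percentiles do not overlap, so in C1q-low cells the libraries separated at the 90th percentile and not at the median.

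Clusters of cells, made with all metalloproteinase and inhibitor genes kept out of the clustering genes, separated these stretches further. Of the 27 clusters, 14 had at least 20 C1q macrophages in every library, and in these Mmp12 was higher in both KO libraries than in both WT libraries in 7, lower in 2 and overlapping in 5. No test was made within clusters. The 7 were clusters with low or middle Mmp12. The lowest of them in WT, cluster 11, had 84.4 and 112.9 CPM in WT and 127.5 and 168.5 in KO. T-gated cells had 56.7 and 73.1 CPM in WT and 124 and 138 in KO. Cluster 7, led by Ccl12 and Fcrls, had 257 and 184 CPM in WT and 463 and 489 in KO. Cluster 8, led by the mitosis genes Cdca3 and Nusap1, had 324 and 380 CPM in WT and 1160 and 1145 in KO. In cluster 4, led by Chil3 and Ccl24, the values were 632 and 616 CPM in WT and 1148 and 1120 in KO. The 2 with lower values were rich in Mmp12. Cluster 5, led by Csta2 and Cxcl1, had 7371 and 4612 CPM in WT and 3120 and 3179 in KO, and cluster 24, led by the interferon-induced Ifit2 and Rsad2, 1980 and 4505 in WT against 1005 and 1642 in KO. In contrast, cluster 10, led by Mmp13, Gpnmb, Mmp12 and Hmox1, overlapped, with 5011 and 3506 CPM in WT and 3319 and 4010 in KO.

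The gates were filled by different clusters in the genotypes, and the part of this in the class values was not tested. In C1q macrophages, cluster 4 made up 20.96% and 21.5% of cells in WT and 2.22% and 3.08% in KO, and cluster 17, led by Gdf15 and Apoe, 0.805% and 1.19% in WT and 23.7% and 11.4% in KO. Among C1q-low cells the Mmp12-rich cluster 10 made up 27.1% and 20.3% in WT and 6.28% and 9.48% in KO. Within that cluster, C1q-low cells also had 11740 and 8160 CPM of Mmp12 in WT and 7530 and 7882 in KO. In cluster 5 they had 7147 and 5330 in WT and 3633 and 3559 in KO, so KO lay lower inside both. The share of cluster 5 among C1q-low cells went the other way, at 11.6% and 17.5% in WT and 24.9% and 23.0% in KO. Of the 8 clusters with at least 20 C1q-low cells in every library, Mmp12 was lower in both KO libraries in these 2, higher in 3 and overlapping in 3. In cluster 3, for example, it was at 346 and 300 CPM in WT and 766 and 850 in KO. Clusters 3, 6 and 8 had higher Mmp12 in both KO libraries in C1q macrophages as well as in C1q-low cells, and cluster 5 had lower Mmp12 in both classes. No cluster compared in both classes went in opposite directions in them.

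**Figure D3:**
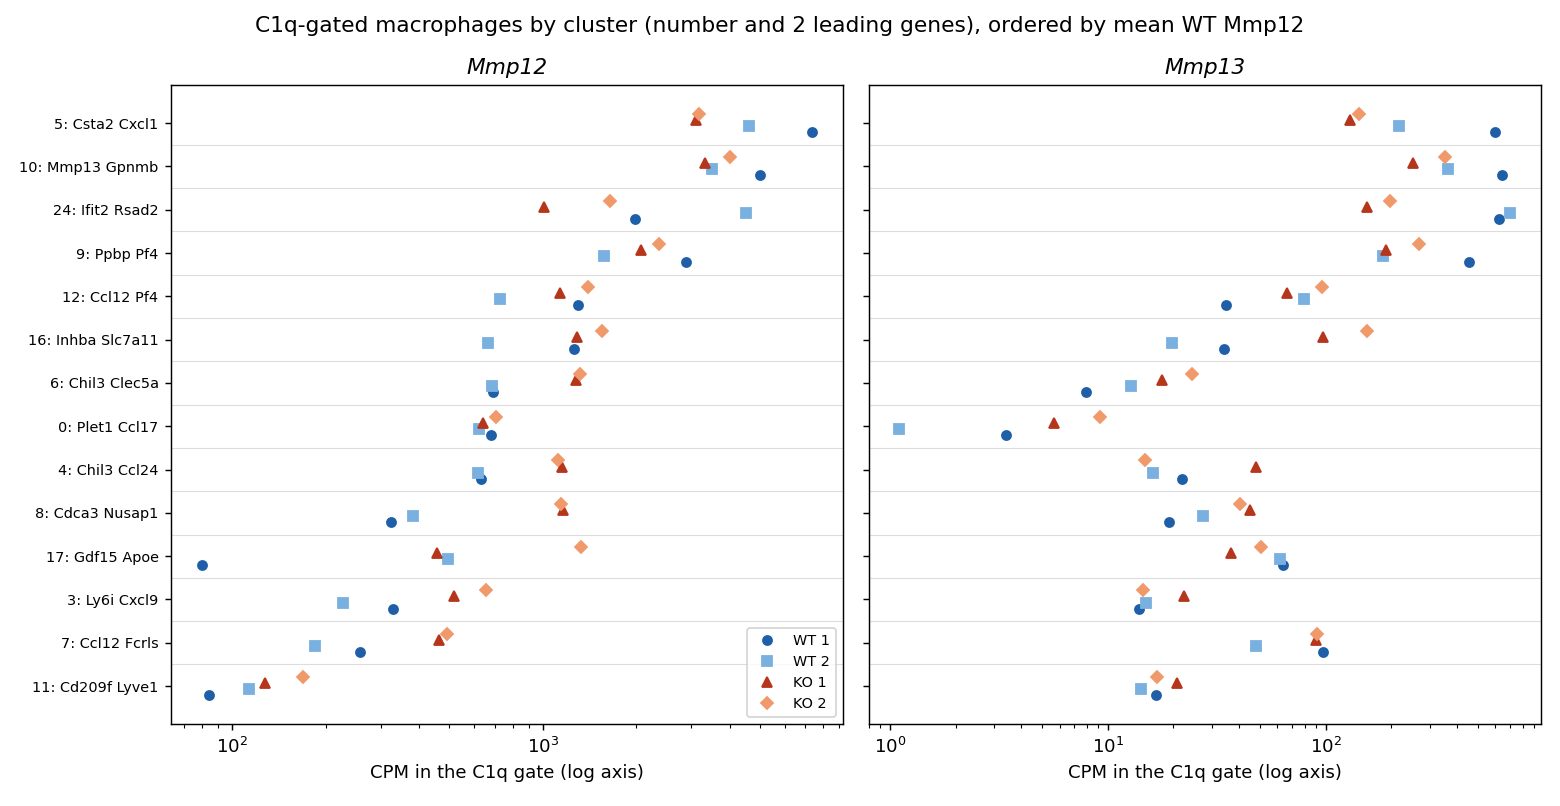
Mmp12 and Mmp13 in C1q macrophages (CPM, horizontal log axes) in each cluster with at least 20 such cells per library, ordered by the mean WT level of Mmp12, 1 point per library. KO points lie to the right of WT points in clusters 3, 4, 6, 7, 8, 11 and 16 for Mmp12, and to the left in clusters 5 and 24.

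Monocytes, the blood-derived cells that can become macrophages, were compared next, and with the Ly6c2 and Plac8 gate no change of Mmp12 opposite to that of macrophages was detected. Monocytes had 236 and 86.6 CPM of Mmp12 in WT and 165 and 327 in KO, which overlap, and the change was 0.65 ± 0.77 (adjusted p = 0.804). The difference of monocytes minus C1q macrophages was -0.04 ± 0.64 (adjusted p = 1), where 1.54% of 11974 genes passed, and it turned sign with the setting. Without WT 1 it was 0.78 (adjusted p = 0.00305), and without WT 2 it was -0.59 (adjusted p = 0.00689), so that leaving out either WT library gave a call in another direction. The share of monocytes with Mmp12 after thinning was 16.1% and 12.6% in WT and 18.5% and 21.2% in KO at unthinned median depths of 5484, 5420.5, 4889 and 5976 UMIs, which for WT 2 and KO 1 is below the share in T-gated cells of the same library. Unthinned monocyte shares were 30.3%, 24.3%, 36.1% and 42.5%. Per UMI of C1qa, Mmp12 stood at 3.06, 0.752, 0.807 and 2.16 in monocytes and at 0.598, 0.324, 0.361 and 0.546 in T-gated cells.

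The direction in monocytes depended on how a monocyte was defined. When monocytes were taken as the 2 clusters that scored highest for monocyte markers, cluster 3 (led by Ly6i and Cxcl9) and cluster 5, Mmp12 was at 5118 and 3388 CPM in WT and 1673 and 1866 in KO, and fell by 1.30 (adjusted p = 0.0276). Of the cells in these clusters only 11.5% to 22.7% per library passed the Ly6c2 and Plac8 gate, while 31.3% to 48.7% were C1q-low and 21.1% to 30.3% were C1q macrophages. The Mmp12-rich cluster 5 made up 56.1% and 58.8% of them in WT and 34.0% and 38.3% in KO. Clusters named macrophage, which leave out the unnamed clusters 4, 6 and 16, had 2613 and 1854 CPM of Mmp12 in WT and 1423 and 2077 in KO. With a stricter monocyte gate Mmp12 rose by 1.45 (adjusted p = 0.0279). Counting the C1q-low cells as monocytes gave a fall by 0.90 (adjusted p = 0.00263).

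Mmp13, collagenase 3, differed most in C1q-low cells. It was at 434 and 282 CPM there in WT and at 114 and 137 in KO, with no overlap, and fell by 1.48 ± 0.23 (adjusted p = 0.0273). It missed the threshold without KO 1 (-1.36, adjusted p = 0.157), without KO 2 (-1.61, 0.0904) and with no filter on low counts (-1.48, 0.0837). In C1q macrophages the 134 and 89.3 CPM of WT overlapped the 97.9 and 138 of KO (0.24 ± 0.24, adjusted p = 0.583). The difference between these classes was -1.69 ± 0.08 (adjusted p = 1.43e-09) and passed in all 9 alternatives. Monocytes had 5.88 to 31.4 CPM and T-gated cells 6.09 to 10.4. Across the 14 clusters of C1q macrophages, Mmp13 was higher in both KO libraries in 5, lower in 4 and overlapping in 5. In cluster 16 it was at 34.1 and 19.6 CPM in WT and 96.98 and 154 in KO, while in cluster 24 it was at 627 and 701 CPM in WT and 155 and 198 in KO. Among the 8 clusters of C1q-low cells, Mmp13 was lower in both KO libraries in 3, higher in 1 and overlapping in 4. In cluster 10 of that class it was at 1384 and 1076 CPM in WT and 922 and 792 in KO. The part of the smaller share of cluster 10 in KO, given above, in the fall of Mmp13 was not tested.

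Mmp8, neutrophil collagenase, was at 176 and 106 CPM in WT and 100 and 146 in KO in neutrophils, from 14 to 47 UMIs per library. In every library this was above the level in C1q-low cells. C1q-low cells had 126 and 78.2 CPM in WT and 65.2 and 67.0 in KO, which do not overlap, but the change of -0.59 ± 0.24 did not pass (adjusted p = 0.225). DESeq2 called it (-0.59, adjusted p = 0.0174), as did edgeR without WT 2 (-0.88, adjusted p = 0.000397). C1q macrophages had 17.1 to 26.2 CPM with a change of 0.07 ± 0.17 (adjusted p = 0.842). The difference between the 2 classes, -0.64 ± 0.08, passed (adjusted p = 1.21e-05), and it passed in all 9 alternatives. Summed neutrophil markers in C1q-low cells were 67.0 and 67.4 CPM in WT and 85.0 and 63.8 in KO, 1 of 6 markers being higher in both KO libraries and none at 0.

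Mmp9, gelatinase B, fell by 2.14 ± 0.23 in C1q-low cells (adjusted p = 0.0065), from 85.1 and 91.2 CPM in WT to 14.95 and 24.2 in KO, and this rested on very few cells. Cluster 14, led by Ctsk, Acp5, Mmp9 and Slc9b2, held 25 cells in all, 11 and 12 in WT and 0 and 2 in KO. Ctsk and Acp5 encode a collagen-degrading cathepsin and a phosphatase known from osteoclasts. The 21 of these cells in the C1q-low class carried 3174 of its 4053 Mmp9 UMIs, with a median of 139 Mmp9 UMIs per cell. Without the cluster, Mmp9 in C1q-low cells was 7.67 and 19.4 CPM in WT and 14.95 and 7.13 in KO, which overlap, and the change was -0.27 (adjusted p = 0.875). With the cluster kept, the fall also missed the threshold without WT 1 (-2.21, adjusted p = 0.086), without WT 2 (-2.07, 0.0649) and with a stricter gate (-1.88, 0.0512). Over all cells of all classes this cluster held 52.6% of the Mmp9 UMIs.

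**Figure D4:**
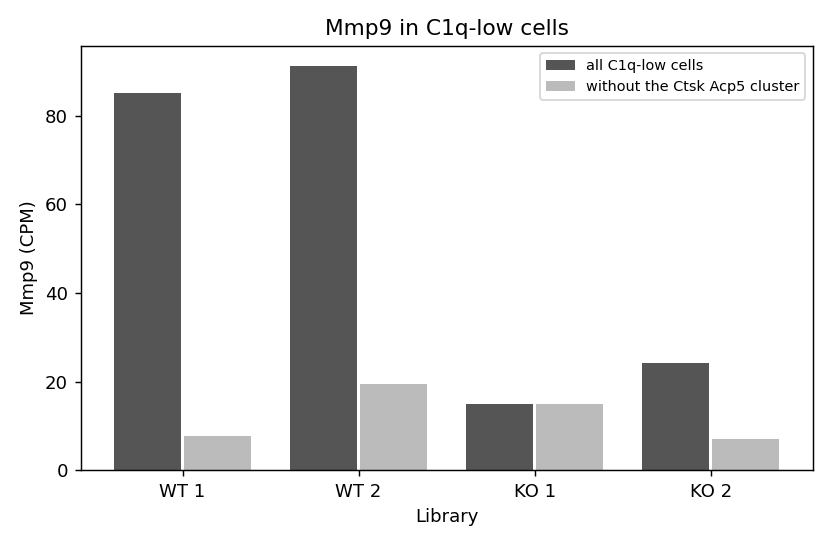
Mmp9 in C1q-low cells (CPM) by library, with all cells (dark bars) and without the Ctsk Acp5 cluster of 25 cells (light bars). The dark bars are at 85.1 and 91.2 in WT, and without the cluster the 4 libraries lie between 7.13 and 19.4.

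In C1q macrophages Mmp9 was at 5.25 to 9.39 CPM and did not pass (0.20 ± 0.30, adjusted p = 0.714). In WT 1, 1 cell of the Ctsk Acp5 cluster held 292 of the 383 Mmp9 UMIs of this class. Without that cluster WT 1 was at 1.97 CPM, and the change was 1.01 and did not pass (adjusted p = 0.413). Neutrophils, gated on S100a8 and S100a9 with Csf3r, Cxcr2, Retnlg and G0s2, had 702 and 386 CPM of Mmp9 in WT and 868 and 874 in KO. The KO libraries were higher, but the change of 0.69 ± 0.31 did not pass (adjusted p = 0.282) in these 54 to 233 cells per library. Of 4 members tested in neutrophils none passed, where 2.43% of 2886 genes passed. At an unadjusted p under 0.05 Mmp9 alone did, and with DESeq2 none.

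Mmp19, a secreted metalloproteinase first described as a rheumatoid arthritis autoantigen, rose in C1q macrophages and in C1q-low cells. In C1q macrophages it was at 38.5 and 29.3 CPM in WT and 56.7 and 50.4 in KO, and rose by 0.81 ± 0.13 (adjusted p = 0.00931). In C1q-low cells it was at 51.1 and 37.9 CPM in WT and 71.5 and 77.3 in KO, and rose by 0.78 ± 0.13 (adjusted p = 0.00722). Both calls held in all 14 and all 11 alternatives run. The difference between the 2 responses was -0.03 ± 0.09 (adjusted p = 0.904). Monocytes had 69.5 and 41.2 CPM in WT and 66.0 and 63.8 in KO, which overlap (0.28 ± 0.20, adjusted p = 0.555). T-gated cells held 0 and 0.677 CPM in WT and 5.74 and 7.07 in KO. Within C1q macrophages Mmp19 was higher in both KO libraries in 8 of 14 clusters and lower in none. Its highest cluster was 16, led by Inhba and Slc7a11 and with a median depth of 1280.5 UMIs, with 137 and 74.5 CPM in WT and 156 and 163 in KO.

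Mmp14, the membrane-type enzyme, rose in monocytes and in Chil3 Ear2 cells. Monocytes had 115 and 98.3 CPM in WT and 167 and 169 in KO, a rise of 0.72 ± 0.13 (adjusted p = 0.00459), and Mmp14 was the 1 member of 8 to pass there, where 3.14% of 8878 genes passed (241 or 2.71% higher and 38 or 0.428% lower, against 184 and 59 with scaling by total counts). The rise missed the threshold without WT 2 (0.64, adjusted p = 0.0899) and with monocytes taken from clusters (0.18, 0.426) or with the C1q-low cells counted in (0.39, 0.0624). Chil3 Ear2 cells had 98.6 and 105 CPM in WT and 160 and 155 in KO (0.69 ± 0.17, adjusted p = 0.0117), the 1 member of 7 tested to pass, where 3.8% of 8036 genes passed (211 or 2.63% higher and 94 or 1.17% lower, against 167 and 117 with scaling by total counts). That call, in 61 to 311 cells per library, was not made by DESeq2 (0.70, adjusted p = 0.222), without WT 1 (0.62, 0.131) or with a stricter gate (0.39, 0.457). In C1q macrophages the values overlapped, with 153 and 177 CPM in WT and 181 and 164 in KO (0.21 ± 0.12, adjusted p = 0.316). The difference of monocytes minus C1q macrophages, 0.53 ± 0.15, passed (adjusted p = 0.0352) but did not without WT 2 (0.29, 0.589), KO 1 (0.60, 0.103) or KO 2 (0.48, 0.392). C1q-low cells had 112 and 145 CPM in WT and 163 and 160 in KO, without overlap, but the change of 0.36 ± 0.13 did not pass (adjusted p = 0.108), although it did without WT 2 (0.58, adjusted p = 0.00474). T-gated cells held 6.09 to 15.8 CPM of Mmp14. Summed T cell markers in monocytes were 1.39 and 10.1 CPM in WT and 34.3 and 22.5 in KO, 5 of 6 being higher in both KO libraries and none at 0, and their part in the monocyte results was not tested.

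Timp2 rose in C1q macrophages, the class with its highest level among the myeloid classes. It was at 424 and 388 CPM in WT and 586 and 615 in KO, with no overlap, and rose by 0.71 ± 0.10 (adjusted p = 0.00779), a call that held in all 14 alternatives. Timp2 in T-gated cells went the other way, at 133 and 161 CPM in WT and 86.1 and 104 in KO. In cluster 18, led by Tnfrsf4 and Foxp3 and scoring for T cell markers, Timp2 was at 192 to 290 CPM. In the T cell cluster 19, led by Ifng and Cd8a, it was at 45.5 to 71.95 CPM. The part of these clusters in the T-gated level was not tested. C1q-low cells had 104 and 126 CPM in WT and 102 and 107 in KO (-0.11 ± 0.11, adjusted p = 0.585). These values lay below the T-gated level of the same library in WT and above it in KO. The difference between these classes was -0.81 ± 0.10 (adjusted p = 0.000654) and passed in all 9 alternatives. Over the myeloid classes and libraries, the genes most like Timp2 were C1qb, C1qc and C1qa (Pearson r = 0.93, 0.92 and 0.91), which define the C1q gate. Per UMI of C1qa, Timp2 in C1q macrophages overlapped, at 0.132 and 0.1 in WT and 0.13 and 0.144 in KO. The part of the C1q gate in the class difference was not tested. Across clusters of C1q macrophages, Timp2 was higher in both KO libraries in 8 of 14 and lower in 1. Cluster 7 went from 736 and 664 CPM in WT to 1107 and 1031 in KO, and cluster 8 from 246 and 203 to 525 and 492. The exception was cluster 11, led by Cd209f, Lyve1, Cbr2 and Cd163, genes of resident macrophages, where Timp2 was at its highest WT level, 1378 and 1389 CPM, against 903 and 963 in KO.

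**Figure D5:**
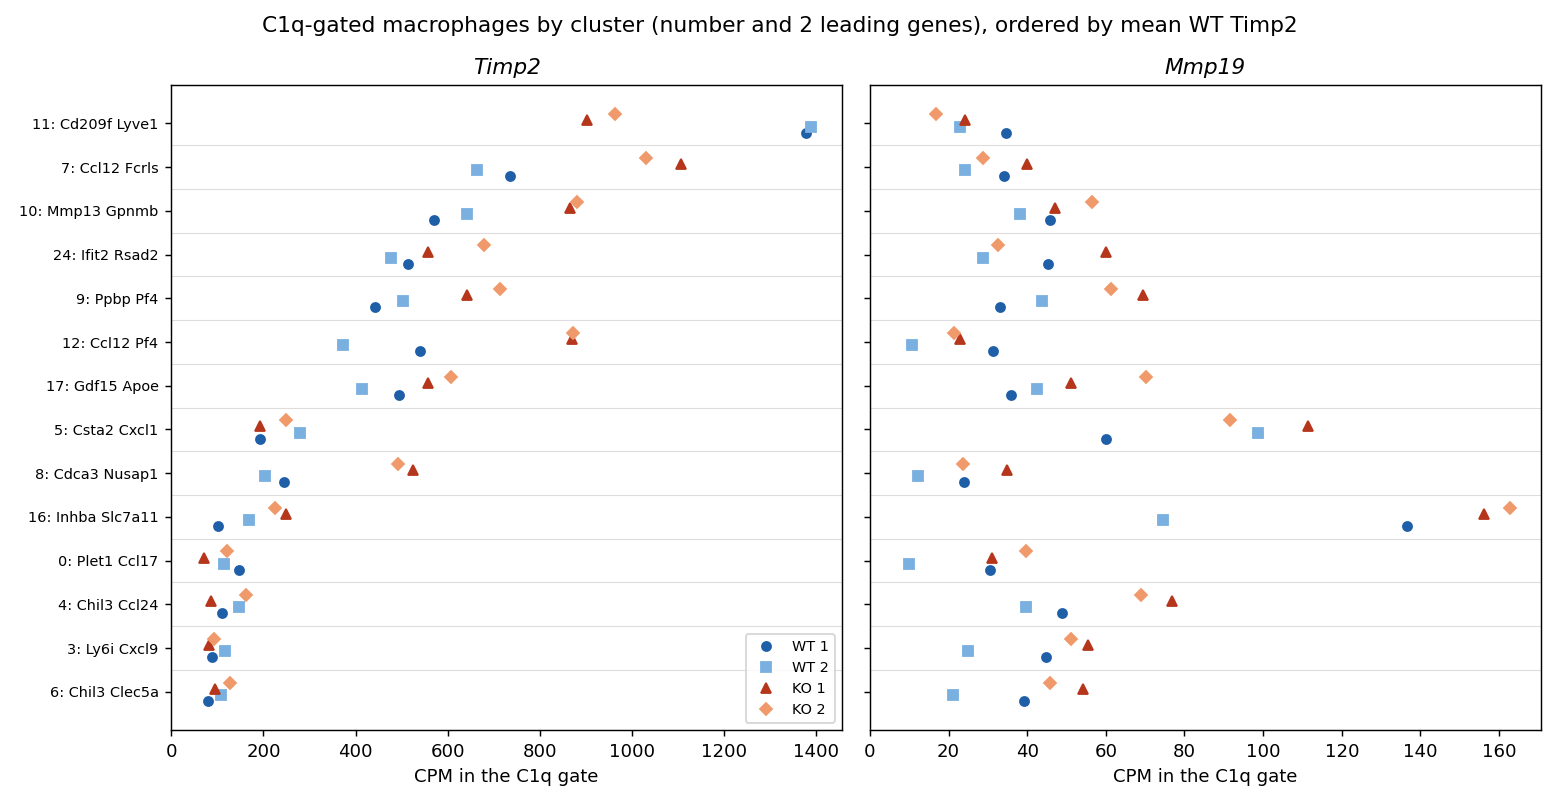
Timp2 and Mmp19 in C1q macrophages (CPM, horizontal axes from 0) by cluster, ordered by the mean WT level of Timp2, 1 point per library. Timp2 points of KO lie to the right of WT in 8 of 14 clusters and to the left in cluster 11.

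Timp1, the other inhibitor, did not pass in C1q macrophages, where WT had 58.7 and 31.7 CPM and KO 26.1 and 40.0 (-0.29 ± 0.37, adjusted p = 0.679), or in C1q-low cells, where the values also overlapped (-0.13 ± 0.32, adjusted p = 0.854). In monocytes it was at 83.4 and 65.6 CPM in WT and 102 and 106 in KO, without overlap, and the change of 0.54 ± 0.14 missed the threshold (adjusted p = 0.0538), which it passed with no filter on low counts (0.57, adjusted p = 0.0041). The difference of monocytes minus C1q macrophages was 0.90 ± 0.20 (adjusted p = 0.0239) and missed the threshold without WT 1 (0.65, 0.0692), without KO 1 (0.60, 0.202), with DESeq2 (0.88, 0.0712) and with classes from clusters (0.33, 0.0542). Fibroblast markers in monocytes summed to 10.4 and 10.9 CPM in WT and 5.54 and 6.97 in KO, 1 of 5 being higher and 2 lower in both KO libraries and 1 at 0 throughout. Cluster 13, led by Sox9 and Cd34 and scoring for fibroblast markers, had 264 to 295 CPM of Timp1 and 603 to 693 of Timp2 in its 888 cells.

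Dendritic cells gave no member that passed among the 6 tested, where 2.22% of 7878 genes passed, 1.61% higher and 0.609% lower. By unadjusted p under 0.05 Mmp12 alone did, and with DESeq2 none. Their Mmp12 was at 82.7 and 122 CPM in WT and 179 and 134 in KO (0.65 ± 0.21, adjusted p = 0.166), beside 56.7 to 138 CPM in T-gated cells. It passed with no filter on low counts (0.66, adjusted p = 0.00734), without WT 2 (1.03, 0.000632) and without KO 2 (0.85, 0.00183).

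Other genes of matrix turnover were read from a list of 82, chosen with earlier results of these data known. In C1q macrophages 63 were tested, of which 13 were higher and 4 lower, where 6.34% of all genes tested were higher and 4.09% lower. The median change was 0.05 against -0.02 over all genes tested. In the group of 7 genes made up of cathepsins and the cathepsin inhibitor Cst3, 5 rose, all cathepsins, and none fell. Ctss, an endosomal elastinolytic cathepsin, rose by 1.05 ± 0.13 (adjusted p = 0.00445), from 2620 and 2858 CPM in WT to 5149 and 5101 in KO. Ctsl and Ctsd rose by 0.96 ± 0.13 (adjusted p = 0.0061) and 0.92 ± 0.14 (adjusted p = 0.00813). Tnf, a cytokine known to induce metalloproteinases, rose by 1.32 ± 0.12 (adjusted p = 0.00163), from 20.3 and 24.1 CPM to 51.4 and 49.5. Mmp25, a membrane-anchored enzyme known from leukocytes, rose by 1.05 ± 0.17 (adjusted p = 0.0115) from a low level, 3.0 and 3.72 CPM in WT and 6.68 and 5.95 in KO. Csf2, a T cell and myeloid cytokine, had only 2 and 5 UMIs in WT and 24 and 21 in KO in this class (2.66 ± 0.52, adjusted p = 0.0191). The summed T cell markers were higher in KO in the same cells, as given above, and their part in the Csf2 counts was not tested. Of 17 other metalloproteinases 5 had counts enough for a test, and Mmp25 alone passed.

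In monocytes 50 of the 82 were tested, and 5 were higher and none lower, against 2.71% and 0.428% of all genes tested. The median change was 0.14 against -0.01 over all genes tested. Tnf rose by 1.54 ± 0.27 (adjusted p = 0.00767), Mmp25 by 1.38 ± 0.28 (adjusted p = 0.0121), and Il1b, an inflammatory cytokine, by 1.15 ± 0.19 (adjusted p = 0.0184). Plaur, the urokinase receptor, rose by 0.86 ± 0.12 (adjusted p = 0.000771), from 511 and 498 CPM in WT to 825 and 916 in KO, and Ets2, an ETS factor, by 0.83 ± 0.17 (adjusted p = 0.0249). In C1q-low cells 58 were tested, with 11 higher and 5 lower, where 6.28% of all genes tested were higher and 5.85% lower. The median change was 0.04 against -0.00 over all genes.

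Over the 24 sums of the 6 myeloid classes and 4 libraries, the gene most like Mmp12 among 7199 genes with a mean of at least 10 CPM was Mmp13 (Pearson r of log2(CPM + 1) = 0.94), followed by Impdh1 (0.92), Tmeff1 (0.92) and Vat1 (0.91). The points share libraries and differ mostly by cell class, so these values describe a shared distribution over classes. Impdh1, an enzyme of guanine nucleotide synthesis, rose in C1q macrophages by 0.62 (adjusted p = 0.0159) and had a change of -0.34 in C1q-low cells that did not pass (adjusted p = 0.0725). The genes most like Timp1 were Snrpb (0.96), Gpx1 (0.93), Atp2b4 (0.92) and Rnps1 (0.92). Among the members, Mmp14 and Mmp19 had the next highest correlation after Mmp12 and Mmp13 (0.84), and Timp1 and Timp2 were at -0.45.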

How the data were processed

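Single-cell RNA of 2 WT and 2 KO libraries was analysed. The deposited matrices hold raw UMI counts. The authors made them with Cell Ranger, version 5.0.0 per the file headers. The submitters' processing notes name version 5.0.1, the build mm10 and Seurat 3.15 without a role. The sources used here do not say how cells were called, and free RNA was not removed. Barcodes under 200 genes or over 20% mitochondrial UMIs were left out. Scrublet (scanpy 1.11.5) called 0 or 1 barcodes per library, which was treated as a failure, so barcodes with the top scores were removed instead (0.8% for every 1000 barcodes, which came to 640 to 2522 per library). Gates needed at least 3 marker UMIs. The UMI counts of each class were added up within a library, the unit of replication, and tested with edgeR 4.0.16 (R 4.3.3: filterByExpr, TMM, robust quasi-likelihood fit, two-sided), with adjustment over all genes of the class. A standard error is the log2 change divided by the root of F. Sums ranged from 96063 UMIs (neutrophils, KO 2) to 62016705 (C1q macrophages, KO 1), which limits what can be called in small classes. The difference between classes used library, class and class by genotype. Leiden clusters (igraph 0.11.9, 2000 variable genes, 30 components, 15 neighbours, resolution 1) were an alternative. Other alternatives were stricter gates, doublets kept, total counts, DESeq2 1.42.0, no filter, a replicate block (crossed for neutrophils, added after seeing the data), and each library left out, where the remaining library of a genotype is assumed to vary like the others.

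Named genes were the 8 members, from the list of 82 at most 6 genes that passed with the largest changes in C1q macrophages and in monocytes, the 4 genes most like Mmp12 and Timp1, and the 4 leading genes of a cluster by fold. Impdh1 was singled out for its changes after its values were seen, and so were the clusters described and the genes most like Timp2. The members and lists were chosen with earlier results of these data known, gate thresholds were set after the libraries had been seen, and the C1q-low class and the alternatives that use it or leave out the Ctsk Acp5 cluster were added after seeing the data. The labels do not say whether the replicate numbers pair the samples, and they were not treated as pairs in the main fits. A check of the knockout labels and 1 gate marker are not reported here.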

Additional observations from a re-analysis of the deposited data

Results flagged for a closer look

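These values were singled out because the change in KO differed between cell classes by a test of the difference itself. In C1q-low cells minus C1q macrophages the differences on the log2 scale were -1.41 for Mmp12, -1.69 for Mmp13, -0.64 for Mmp8 and -0.81 for Timp2. In monocytes minus C1q macrophages they were 0.53 for Mmp14 and 0.90 for Timp1. The first 4 passed in all 9 alternatives run, while the pair in monocytes missed the threshold in 6 and 4 of 10 alternatives, for Mmp14 and Timp1 in that order, and for Mmp14 this includes 1 change of sign.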

How the results depend on the processing

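With 2 libraries per genotype, each left out in turn, the number of genes called ranged from 480 to 1687 in C1q macrophages, 665 to 1440 in C1q-low cells, 221 to 405 in Chil3 Ear2 cells, 92 to 288 in monocytes, 170 to 325 in dendritic cells and 66 to 131 in neutrophils. With classes taken from clusters 614 genes were called in monocytes, 470 in dendritic cells and 31 in neutrophils. With DESeq2 the counts were 106 in Chil3 Ear2 cells, 160 in monocytes, 69 in dendritic cells and 29 in neutrophils, and with no filter 461, 597 and 340 in the first 3 of these. Stricter gates gave 144 in Chil3 Ear2 cells and 1 in neutrophils, and keeping doublets gave 45 in neutrophils. Counting Chil3 Ear2 cells as monocytes gave 1725 calls and counting C1q-low cells as monocytes 1915.

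For Mmp12 on the log2 scale, clusters gave -0.19 in macrophages, -1.30 in monocytes, -0.12 in dendritic cells and -1.06 for monocytes minus macrophages. Counting in C1q-low cells gave 0.023 in macrophages and -0.90 in monocytes, and counting in Chil3 Ear2 cells gave -1.34 in monocytes. Stricter gates gave 1.45 in monocytes and 0.36 for the difference, which was 0.13 with doublets kept, 0.010 with total counts and 0.074 with DESeq2. Leaving out a library gave 0.50 to 0.95 in C1q macrophages, -0.86 to -0.52 in C1q-low cells, 0.10 to 1.57 in monocytes, -0.67 to 0.20 in Chil3 Ear2 cells and -0.59 to 0.78 for the difference. With the replicate number as a block, Mmp12 in C1q macrophages was 0.73 (adjusted p = 0.0652, edgeR) and 177 genes were called in Chil3 Ear2 cells. Deviations of same-numbered libraries had correlations of -0.14 to 0.026, which gave no sign of pairing and cannot exclude it with 2 libraries per genotype. The lowest value was in neutrophils, where crossing the numbers (chosen after seeing the data) gave 292 genes called.

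Other directions also turned. In macrophages, clusters gave -0.30 for Mmp8, -1.94 for Mmp9 and -0.63 for Mmp13, and C1q-low cells counted in gave -0.40, -1.40 and -0.46. Mmp8 was -0.084 with total counts and -0.048 with Chil3 Ear2 cells counted in. Of these values only those of Mmp9 passed (edgeR, adjusted p = 0.00082 with clusters and 0.0007 with C1q-low cells counted in). Both of those settings include cells of the Ctsk Acp5 cluster. Clusters gave -0.057 for Mmp14 in monocytes minus macrophages. Leaving out a library gave, in C1q macrophages, -0.17 to 0.36 for Mmp8, -0.26 to 0.55 for Mmp9, -0.044 to 0.51 for Mmp13 and -0.64 to 0.17 for Timp1. It gave -0.45 to 0.19 for Timp1 and -0.26 to 0.051 for Timp2 in C1q-low cells, and -0.012 to 0.72 for Mmp19 in monocytes. Mmp19 and Timp2 in C1q macrophages kept their direction and call in all 14 alternatives. Neutrophil sums of at most 378828 UMIs limit what can be called there.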

Other observations

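Among the listed transcription factors of the AP-1 and related group, Fosl1, an AP-1 subunit, fell in C1q-low cells by 1.51 ± 0.22 (adjusted p = 0.00227), from 6.23 and 5.32 CPM in WT (118 and 106 UMIs) to 2.1 and 1.84 in KO (34 and 29 UMIs), and Runx2 fell by 0.42 ± 0.11 (adjusted p = 0.0315). Both were named after their values were seen. Of the 11 genes of that group in C1q-low cells, 2 were higher, 2 lower and the other 7 did not pass (edgeR, adjusted over all genes of the class). Over all genes tested in that class 6.28% were higher and 5.85% lower.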
